A study of Mus musculus with 21 samples.

Results

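Guanylate binding proteins are large GTPases that interferon gamma induces in many cell types. They assemble on the membranes of intracellular microbes and of the vacuoles that hold them, and some members promote inflammasome signalling. In the mouse their genes lie in a pair of clusters, on chromosomes 3 and 5. The 9 genes described here, Gbp2, Gbp2b, Gbp3, Gbp4, Gbp5, Gbp6, Gbp7, Gbp8 and Gbp9, were taken by symbol, and all 9 were found among the 22040 gene symbols of the deposited tables. The family was chosen by the difference of Gbp2b, known earlier as Gbp1, between Tau and WT neurons in these same data, so that its levels are given as a description, with no test.

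RNA was sequenced from 21 cultures of primary cortical neurons from newborn mouse pups, in 4 groups. Tau neurons carried a human Tau P301S cDNA under the prion promoter, were seeded on day 7, per the labels, with pre-formed Tau fibrils at 3 µg/mL and were kept for 18 more days, whereas WT neurons lacked the transgene. Each genotype received 10 µM AdipoRon, an adiponectin receptor agonist, or DMSO, its vehicle, for 24 h (Tau DMSO n = 5, Tau AdipoRon n = 5, WT DMSO n = 5, WT AdipoRon n = 6). Cytosine arabinoside had been added to all cultures to limit glia, and the sources differ on whether WT neurons were seeded too. If they were not, seeding and transgene cannot be told apart in the comparison of genotypes. Cultures of both treatments came from the same animals, per the study's reporting summary, so the treatment groups are not independent. The study's rule of repeated sessions exempts the RNA sequencing, so how many sessions these cultures came from is not known. The strain background of the mice was not given in the sources used here.

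The values are the authors' mean levels over all libraries of a table, in log2 CPM, where CPM are the counts of a gene scaled to the size of its library. Each of the 4 tables joins 2 groups: the DMSO-only table (Tau and WT, 10 libraries), the AdipoRon-only table (Tau and WT, 11), the Tau-only table (both treatments, 10) and the WT-only table (both treatments, 11). No value per culture was analysed here, so no mean has an SD or a p-value, the tables do not give the depth of a library, and it could not be asked whether a difference is larger than the spread between cultures. The tables were normalized separately, which bears on every comparison between them below.

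Astrocyte markers were as high as neuronal ones in cultures labelled as neurons. Gfap, the astrocyte intermediate filament, had 10.70 to 11.04 log2 CPM over the 4 tables, and Snap25, a neuronal synaptic protein, 9.81 to 10.11. Microglial markers were lower in the Tau-only than in the WT-only table for 7 of 7 genes, from -0.42 log2 for P2ry12 to -1.41 for Aif1, and their summed level was 237 CPM against 451 CPM. Oligodendrocyte lineage markers were lower for 5 of 5 genes, from -0.26 for Mog to -1.64 for Sox10, with summed levels of 447 and 727 CPM. Mobp, a myelin gene outside these 5, went the other way, with 4.58 log2 CPM in the Tau-only and 3.42 in the WT-only table. Neuronal markers differed by -0.01 (Gad1) to 0.33 (Slc17a7), with summed levels of 4056 and 3671 CPM. Astrocyte markers differed by -0.28 (Aqp4) to 0.12 (Slc1a2). Of 4 endothelial markers, Cldn5 was in no table and Cdh5 in the WT-only table alone, Pecam1 differed by -0.04 and Flt1 by -0.58. In bulk RNA, fewer cells of a type and less RNA per cell cannot be told apart.

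The 5 members on chromosome 3 have promoters in RefSeq (GRCm38.p6), and these are shown because Gbp2b and the relatives it is contrasted with lie side by side there, all on the plus strand. The stretches run 5′ to 3′ from 180 to 30 bases before the transcript start: Gbp2b at chr3:142594667-142594817, Gbp2 at chr3:142620483-142620633, Gbp3 at chr3:142559864-142560014, Gbp7 at chr3:142530156-142530306 and Gbp5 at chr3:142496754-142496904. Capitals mark GAAA, any 2 bases and GAAA again, searched on both strands (TTTC, 2 bases and TTTC as printed here), which are the letters of an interferon-stimulated response element.
Gbp2b: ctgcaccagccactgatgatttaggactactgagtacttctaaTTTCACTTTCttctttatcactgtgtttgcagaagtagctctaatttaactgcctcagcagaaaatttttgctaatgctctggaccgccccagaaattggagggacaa
Gbp2: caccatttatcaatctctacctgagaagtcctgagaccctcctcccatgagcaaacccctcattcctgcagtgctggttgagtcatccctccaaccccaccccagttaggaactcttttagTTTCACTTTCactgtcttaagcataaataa
Gbp3: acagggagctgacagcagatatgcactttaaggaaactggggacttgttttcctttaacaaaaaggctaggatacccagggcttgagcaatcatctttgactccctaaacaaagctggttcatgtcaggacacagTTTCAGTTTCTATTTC
Gbp7: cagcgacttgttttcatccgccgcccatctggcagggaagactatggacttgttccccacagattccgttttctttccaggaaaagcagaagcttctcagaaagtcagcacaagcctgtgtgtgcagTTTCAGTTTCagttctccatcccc
Gbp5: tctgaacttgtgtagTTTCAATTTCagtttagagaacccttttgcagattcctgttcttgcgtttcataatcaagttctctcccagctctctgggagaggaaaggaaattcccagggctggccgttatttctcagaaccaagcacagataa

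Each of these 5 promoters held the response element letters at least once, and of all 32851 RefSeq promoter windows of 300 bases 3.44% held them. Gbp2b and Gbp2 carried the same letters, TTTCACTTTC, but at different distances: the match began 137 bases before the start in Gbp2b and 59 bases before it in Gbp2. In Gbp3 a pair of matches overlapped, beginning at 45 and 39 bases before the start, and the second annotated Gbp3 start had none. Gbp7 had its match at 53 bases and Gbp5 at 165 bases before the start. Distances are from the start of each promoter entry. For Gbp2b and Gbp3 the RefSeq gene begins upstream of it, at chr3:142594816 and chr3:142560016, so their distances would be shorter from there. For Gbp2, Gbp5 and Gbp7 the starts coincide. The letters TTCNNNGAA, read for a gamma-activated site and the same on both strands, occurred in the windows of Gbp5 and Gbp7 and in 8.30% of all windows, and had no match in the windows of Gbp2b, Gbp2 and Gbp3. A match is a description of the sequence, not evidence of a bound site. Gbp4, Gbp6, Gbp8 and Gbp9 had no entry.

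Gbp2b, a chromosome 3 member, stood apart from the family in which tables listed it. Its mean was 2.57 log2 CPM in the Tau-only table, 1.68 in the DMSO-only table and 1.41 in the AdipoRon-only table, and the WT-only table had no row for it. The other 8 members were listed in all 4 tables. A missing row is not a measurement of 0, and the filter that the authors put on each table was not given in the sources used here. Of 171 genes listed everywhere but in the WT-only table, Gbp2b was the highest in the Tau-only table, ahead of Tbx5 at -0.73. It was the only 1 of them at or above 0 log2 CPM. Gbp2b was chosen for its genotype difference in these data, so this rank is a description and no support for that difference. In the reverse pattern, 120 genes were listed everywhere but in the Tau-only table. Of these, 4 were at or above 0 log2 CPM in the WT-only table, the highest at 0.40. The lowest level listed in the WT-only table was 0.116 CPM.

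**Figure D1:**
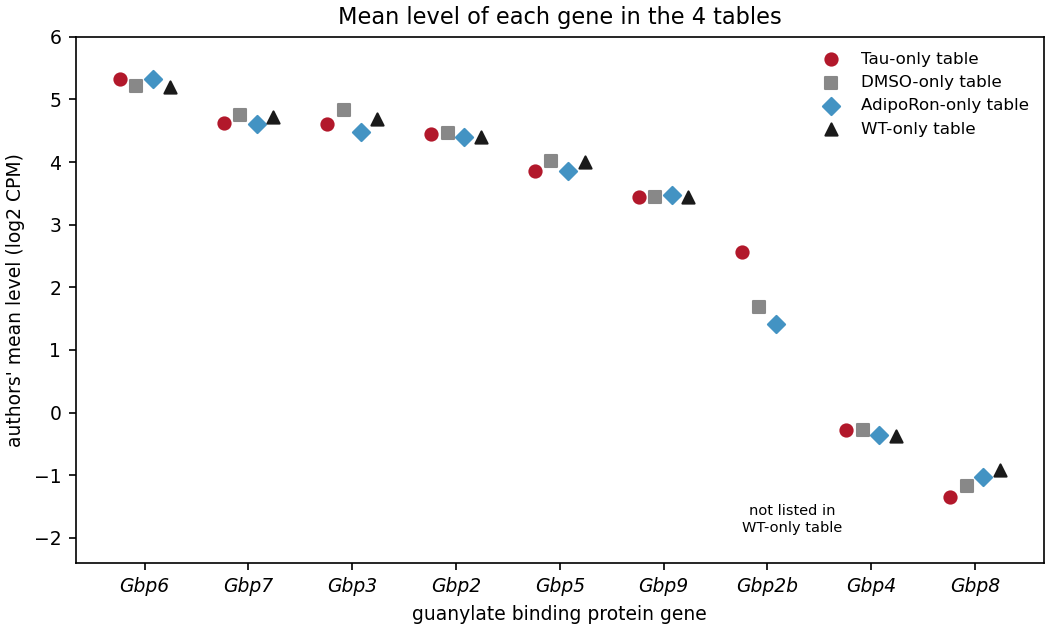
Authors' mean level (vertical axis, log2 CPM) of each guanylate binding protein gene (horizontal axis, ordered by mean level) in the Tau-only, DMSO-only, AdipoRon-only and WT-only tables, 1 point for each table and no error because no value per culture was used. Gbp2b ran from 1.41 to 2.57 and had no WT-only point, while the points of each other gene lay close together.

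The other members on chromosome 3 were expressed in both genotypes at similar levels. Gbp2, which is recruited to the vacuole of the parasite Toxoplasma, had 4.45 log2 CPM in the Tau-only table, 4.40 in the WT-only table, 4.47 in the DMSO-only table and 4.40 in the AdipoRon-only table. Gbp3 had 4.61, 4.69, 4.83 and 4.48 in the same order. Gbp5, which promotes assembly of the NLRP3 inflammasome, had 3.85, 3.99, 4.01 and 3.86. These 3 genes spanned 0.07 to 0.34 log2 over the tables, whereas the 3 listed values of Gbp2b spanned 1.16. Gbp7 had 4.63, 4.72, 4.75 and 4.61.

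The chromosome 5 members held the highest and the lowest levels of the family. Gbp6 had 5.32 log2 CPM in the Tau-only table, 5.20 in the WT-only table, 5.21 in the DMSO-only table and 5.32 in the AdipoRon-only table. Gbp9 had 3.45, 3.44, 3.44 and 3.47, the narrowest range of the 9 genes. Gbp4 was near the low end with -0.29, -0.37, -0.28 and -0.36, and Gbp8 was the lowest with -1.35, -0.91, -1.17 and -1.02. Gbp10, a close relative outside the 9, had 2.34, 2.28, 2.17 and 2.44, and Gbp11, a transcribed pseudogene, -0.87, -0.19, -0.47 and -0.45.

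Per kb of the canonical GENCODE transcript, the Tau-only level was 8.90 CPM per kb for Gbp3, 8.71 for Gbp6, 8.63 for Gbp2, 4.53 for Gbp5, 4.37 for Gbp7, 2.09 for Gbp2b, 1.93 for Gbp9, 0.245 for Gbp8 and 0.181 for Gbp4. Gbp2b was above Gbp9 in this table and below it in the DMSO-only table (1.14 against 1.92) and in the AdipoRon-only table (0.939 against 1.96). With no spread over cultures, the order of neighbouring levels cannot be told from noise.

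Near-identical sequence makes some of these levels uncertain, because reads can be split among copies or dropped. The study's methods name RSEM, which splits such reads, while the tables carry the name of Rsubread, so which was done is not settled. Of 50-base windows of the canonical transcript, 76.7% for Gbp6 and 78.5% for Gbp10 also occurred in a transcript of another family member, in each case mainly the other of the pair. The share was 28.9% for Gbp8, 13.6% for Gbp4 and 7.75% for Gbp9. It was 1.80% for Gbp2b and 2.00% for Gbp2, although their coding sequences were 82.5% identical, and no window of Gbp5 was shared.

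The Tau-only and WT-only tables share no culture, and their difference asks how the genotypes differ with both treatments pooled. None of the 8 members in both tables differed by 1 log2 or more, where 0.126% of 19890 genes were higher and 0.508% lower by that much. The differences, Tau-only minus WT-only, ran from -0.44 for Gbp8 to 0.11 for Gbp6, with 4 members below 0 and 4 above. On chromosome 3 they were 0.06 for Gbp2, -0.07 for Gbp3, -0.09 for Gbp7 and -0.14 for Gbp5, and on chromosome 5 they were 0.08 for Gbp4 and 0.00 for Gbp9. The median absolute difference was 0.09 over the 8 members and 0.09 over all genes. The microglial and oligodendrocyte lineage markers that were lower in the Tau-only table moved with this comparison, and their part in the members' values was not tested.

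For Gbp2b the contrast needs the tables that list it. A gene with reads in the Tau libraries alone, and at 1 mean level in both treatments, would exceed its DMSO-only level by 1 log2 and its AdipoRon-only level by 1.14 log2, since 5 of the 10 libraries of 1 table and 5 of the 11 of the other are Tau libraries. Gbp2b exceeded them by 0.88 and 1.16. Where the Tau groups differ in level these reference values shift, below 1 for the one and above 1.14 for the other if Tau AdipoRon is the lower group. Both excesses were at least 0.5 for 3 of 19570 genes (0.0153%), namely Gbp2b, Rec8 and Kng2, and for no other member. Singly, an excess of that size over the DMSO-only table was seen for 1.27% of genes (1.39% were as far below it) and over the AdipoRon-only table for 3.9% (2.43% below). Among the other 8 members the excess ran from -0.21 (Gbp3) to 0.11 (Gbp6) over the DMSO-only table, and from -0.33 (Gbp8) to 0.13 (Gbp3) over the AdipoRon-only table. These tables share the Tau cultures, so both excesses are not independent.

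**Figure D2:**
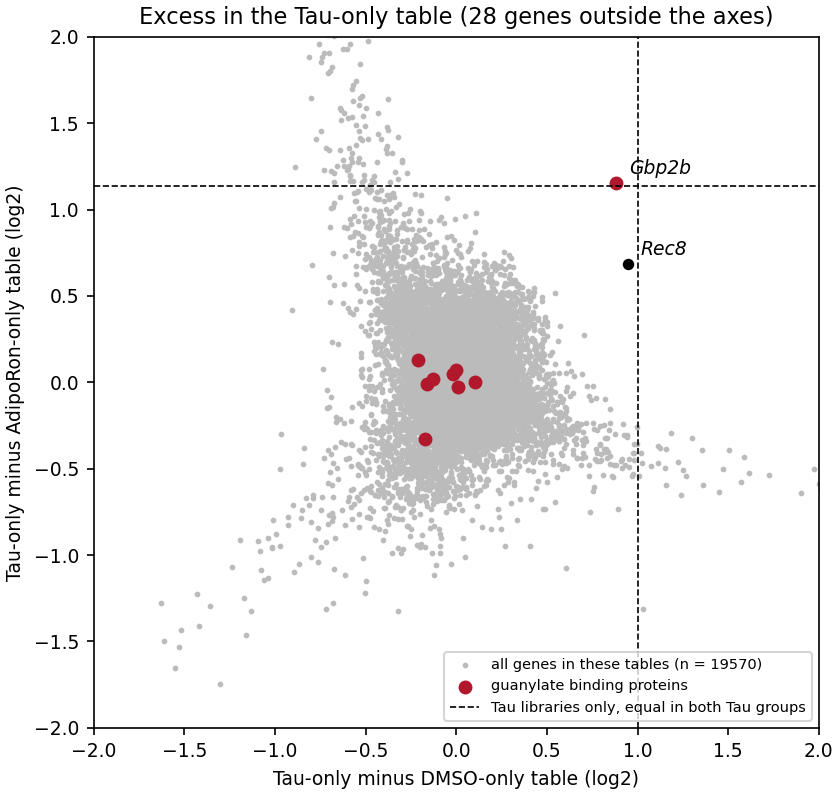
Tau-only minus DMSO-only level (horizontal axis, log2) against Tau-only minus AdipoRon-only level (vertical axis, log2) for 19570 genes (grey), with guanylate binding proteins in red, Rec8 in black and dashed lines at the values of a gene with reads in Tau libraries only and equal levels in both Tau groups; 28 genes lie outside the axes. Gbp2b, at 0.88 and 1.16, lies near the crossing of the lines, and the other members lie near 0.

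The missing WT-only level of Gbp2b can be worked out from the other tables, since all 4 draw on the same groups. On the linear scale, with each table weighted by its libraries, the DMSO-only and AdipoRon-only tables together should equal the Tau-only and WT-only tables together. Over the 19399 genes in all tables, the WT-only level obtained this way differed from the listed one by a median of 0.346%. For Gbp2b it gave 0.193 CPM, against a Tau-only level of 5.92 CPM. For Rec8, whose WT-only level is listed, the same sum gave 0.693 CPM against 0.702 CPM.

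That figure is a low level rather than a precise one, and all the ways of working it out that were tried, each chosen after the data were seen, are given here. Equal weights for the groups gave -0.0540 CPM, an impossible value, and they recovered listed levels less closely (SD of the error 0.114 CPM against 0.0448 CPM over 3015 genes within a factor of 2 of Gbp2b). Weights fitted by least squares over 8 sets of genes gave 0.184 to 0.267 CPM. The middle 95% of the errors over the 3015 genes would place the level between 0.0811 and 0.267 CPM. Over the 32 of them whose genotypes differed by 1 log2 or more, the errors reached lower, to -0.29 CPM, so that a WT-only level of 0 is not excluded. At 0.267 CPM the Tau-only level would be 22.2-fold higher. No upper bound of the fold can be given, and the levels include the small prior count that edgeR adds.

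With the WT-only level taken as at most 0.267 CPM and no group mean below 0, the tables give a Gbp2b range for each group. That level comes from the middle 95% of the errors and is not a limit. The DMSO-only and AdipoRon-only means were also taken as exact, so the ranges are conditional. WT DMSO would be at most 0.588 CPM and WT AdipoRon at most 0.490 CPM. Tau DMSO would lie between 5.84 and 6.42 CPM, and Tau AdipoRon between 5.26 and 5.85 CPM. Under these assumptions the Tau mean would be at least 9.93-fold higher than the WT mean with DMSO and at least 10.7-fold higher with AdipoRon. Within Tau neurons the ratio of AdipoRon to DMSO would lie between 0.819 and 1.00. These are conditional ranges of group means only, and the spread between cultures does not enter them. For the other members the same sums were uninformative, allowing Gbp2 in WT DMSO to be anywhere from 0.508 to 44.4 CPM.

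**Figure D3:**
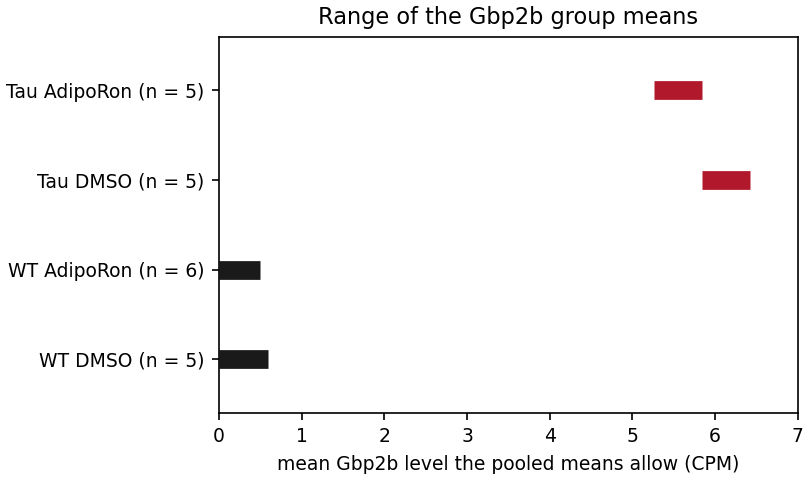
Range of the mean Gbp2b level (horizontal axis, CPM) that the pooled means give in each group (vertical axis, with the number of cultures). The WT-only level was taken as 0.267 CPM at most, which is not a strict limit, and the DMSO-only and AdipoRon-only means as exact. Bars are ranges under these assumptions, not errors. Both Tau ranges, from 5.26 to 6.42 CPM, lie above both WT ranges, which end at 0.588 CPM.

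The nearest genes to Gbp2b on chromosome 3 that both the Tau-only and WT-only tables list did not share its genotype difference. Genes missing from either table were passed over, so a neighbour unlisted in the WT-only table, like Gbp2b itself, could not be counted. Of the 10 genes kept on each side, none differed by 1 log2 or more between these tables. At least 0.5 was reached by 3 of 20, and by 7.73% of all genes. The differences ran from -0.53 for Unc5c, a netrin receptor, to 0.60 for Gm46829, with a median of -0.01. Gm40158, listed between Gbp3 and Gbp2b, differed by 0.15 and Gbp2, on the other side, by 0.06.

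**Figure D4:**
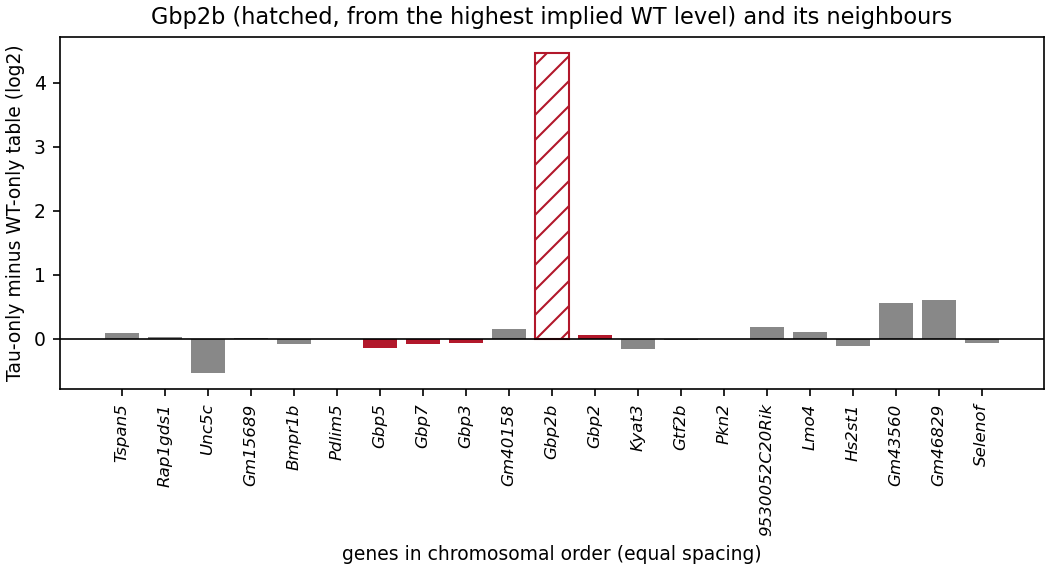
Tau-only minus WT-only level (vertical axis, log2) of the 10 nearest genes listed in both tables on each side of Gbp2b, with guanylate binding proteins in red. Genes are in chromosomal order (horizontal axis, equal spacing), and those missing from either table were passed over. The hatched Gbp2b bar uses the highest implied WT-only level, 0.267 CPM. The neighbours lie between -0.53 and 0.60.

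The genes most like Gbp2b were those with the nearest pair of excesses among 15843 genes at 0 log2 CPM or more in the Tau-only table. By Euclidean distance they were Rec8, a meiotic cohesin subunit (0.47), Kng2, a kininogen (0.72), 3110053B16Rik (0.76), Mobp, a myelin protein (0.76), and Slc6a13, a GABA transporter (0.78). Rec8 had 1.91 log2 CPM in the Tau-only and -0.51 in the WT-only table, a difference of 2.43, which was the highest of the 19890 genes in both tables. The other 4 differed by 1.11 to 1.24, among them Mobp by 1.15, opposite in direction to the 5 oligodendrocyte lineage markers above. The likeness rests on 4 pooled means for each gene.

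The AdipoRon-only and DMSO-only tables share no culture but share animals, and their difference asks how treatment changed the family with both genotypes pooled. None of the 9 members differed by 1 log2 or more, where 0.675% of 19693 genes were higher and 1.75% lower. Gbp3 had the lowest difference, AdipoRon-only minus DMSO-only, at -0.34, followed by Gbp2b at -0.27, Gbp5 at -0.15 and Gbp7 at -0.14. Gbp2 and Gbp4 were each at -0.07. Gbp9 was at 0.03, Gbp6 at 0.11 and Gbp8 at 0.15. The median was -0.07 over the members and 0.02 over all genes. For Gbp2b, the tables differ in the share of Tau cultures (5 of 11 against 5 of 10), which by itself lowers the pooled mean of a gene found in Tau cultures. For a gene with reads in Tau libraries alone, at 1 level in both treatments, that lowering is the gap between the 1 log2 and 1.14 log2 given above.

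Genes of the interferon gamma pathway, which induces the family, were listed in these tables. Ifng, which encodes interferon gamma, was the only interferon gene looked up. It was in no table, and a missing row is not a measurement of 0. The interferon gamma receptor genes were at 5.31 (Ifngr1) and 6.00 (Ifngr2) log2 CPM in the Tau-only table and at 5.36 and 5.95 in the WT-only table. The kinases Jak1 and Jak2 differed by 0.03 and -0.10 between these tables. Irf1, an interferon-inducible transcription factor, differed by -0.07. Other genes of the pathway differed by more. Of its 14 genes in both tables, 11 were lower in the Tau-only table and 3 higher. They ran from -0.67 for Irf8 to 0.26 for Ciita, with a median of -0.09.

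The interferon-inducible GTPase and interferon list has 44 other genes in both the Tau-only and WT-only tables. It also counts relatives of the family, namely Gbp10, Gbp11 and the atlastins. None of them differed by 1 log2 or more between the genotypes. Over all genes 0.126% were higher and 0.508% lower by that much, so a count of 0 does not set so short a list apart. Of the 44 genes, 35 were lower in Tau, with a median of -0.13 against 0.00 over all genes. That all-gene median is the only reference given here for the counts of lower genes. Of 16 interferon-stimulated genes, 15 were lower, from -0.71 for Mx1, an antiviral GTPase, with Usp18 at 0.06. Of 9 immunity-related GTPases, a family with similar roles against vacuolar microbes, 7 were lower, down to -0.77 for 9930111J21Rik2. Microglial markers were lower in the same tables, and their part in these values was not tested. The atlastins, relatives that shape the endoplasmic reticulum, differed by 0.15 (Atl1), 0.13 (Atl2) and -0.07 (Atl3), Gbp10 by 0.05 and Gbp11 by -0.68. Between the treatments none of 43 genes differed by 1 log2 or more, where 0.675% of all genes were higher and 1.75% lower. That count does not set the list apart either. Of the 43 genes, 24 were higher with AdipoRon, with a median of 0.10 against 0.02 over all genes. The parts of the list differed. Of 14 interferon gamma pathway genes 10 were higher, with a median of 0.22 and up to 0.57 for Stat2. Of 15 interferon-stimulated genes 7 were higher and 8 lower, with a median of -0.02 and down to -0.76 for Cxcl10. Of 9 immunity-related GTPases 3 were higher and 6 lower.

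**Figure D5:**
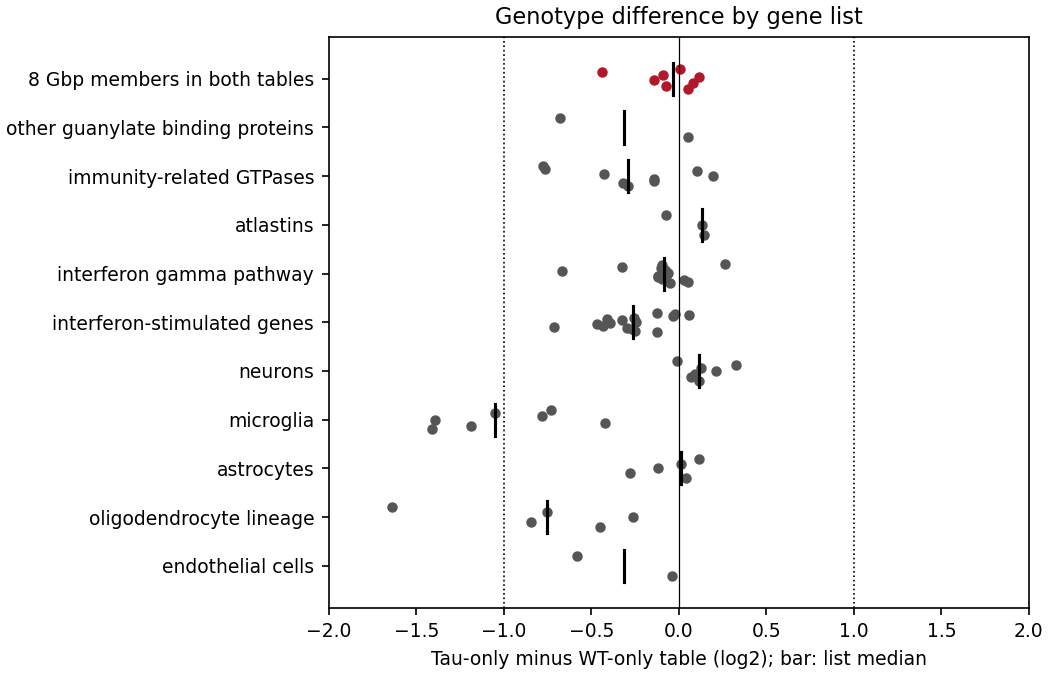
Tau-only minus WT-only level (horizontal axis, log2) of each gene in both tables, by gene list (vertical axis), with vertical bars at the list medians and dotted lines at 1 log2 in each direction. The 8 guanylate binding proteins in both tables run from -0.44 to 0.11 and the 7 microglial markers from -0.42 to -1.41; Gbp2b is absent because the WT-only table does not list it.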

How the data were processed

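RNA sequencing of 21 cultures was deposited as 4 comparison tables, each pooling 2 groups. The authors trimmed the reads, aligned them with STAR to mm10, estimated gene abundance with RSEM and fitted generalized linear models in edgeR (STAR, edgeR and mm10 also stand in the submitters' processing notes), although the tables carry the name of Rsubread and the build is also given as GRCm39. The column used here is the deposited mean log2 CPM over the libraries of a table, per the file headers, which includes a prior count. The other columns hold the authors' fold changes, likelihood ratios, p-values, false discovery rates and calls, and were not used. The groups of a table were read from its name, since the sample labels do not name the WT-only table and partly conflict with the others.

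Differences of log2 means and sums of CPM were computed with Python 3.11.15, pandas 2.3.3 and numpy 2.4.6, without a filter or pseudocount. A difference of at least 1 log2 between tables with no shared culture, or 0.5 between tables that share some, was counted. The tables hold no value per culture, so replicate error is unknown and no test was made. Genes named besides the members were the 5 nearest to Gbp2b, interferon genes and markers at the ends of their ranges; Tbx5, Unc5c, Gm40158, Gm46829, Gbp2b's order neighbours and the interferon genes at the ends of their lists were chosen after their values were seen. 1 gene that the naming rule covers is not reported here. The members and lists were chosen with earlier results of these data known. Promoters and gene order came from RefSeq (GRCm38.p6), and transcripts from GENCODE vM39 on GRCm39, used for lengths and sequence sharing only. AdipoRon is given as 10 µM in the sample tags.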

Additional observations from a re-analysis of the deposited data

How the results depend on the processing

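Centring on the median of all genes, or keeping genes above 0 log2 CPM, left the counts of members past a size as they were (0 by genotype, 0 by treatment, 1 by Tau-table excess), as did a size of 0.5 for the differences and 0.8 for the excess. At a size of 0.5, 5 genes of the interferon-inducible GTPase and interferon list passed between genotypes, all lower in the Tau-only table. Between treatments 4 passed, 2 higher and 2 lower with AdipoRon. At a size of 1 the counts were 0 and 0. Of all genes, 7.73% and 10.8% passed 0.5. Ranking by Chebyshev distance kept 3 of the 5 genes nearest to Gbp2b. Gbp2b ranked 7 of 9 by Tau-only level and by level per kb of coding length, and 6 per kb of canonical transcript; protein lengths were replaced by GENCODE coding lengths. The implied WT-only level of Gbp2b, 0.193 CPM, became -0.0540 CPM with equal weights. Weights fitted over 8 sets of genes gave 0.184 to 0.267 CPM, the highest with all genes of 1 to 12 CPM. These weightings were chosen after seeing the data. No paired analysis was possible because the tables hold means over libraries and no value per culture, and for the same reason no culture could be left out. The tables give no depth or spread for a library, so the precision of each level is unknown.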
